A study of Mus musculus with 8 samples.

Results

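The nuclear genes of respiratory complexes II to V were described in injured mouse kidney: the subunits of succinate dehydrogenase (complex II), the cytochrome bc1 complex (complex III), cytochrome c oxidase (complex IV) and ATP synthase (complex V), with cytochrome c itself. They were chosen by name as the protein-coding genes Sdha to Sdhd, Cyc1 and Cycs and those whose symbols begin with Uqcr, Cox4i, Cox5, Cox6, Cox7, Cox8 or Atp5. Of 42256 genes in the count table, 49 were members: 4 of complex II, 9 of complex III, 18 of complex IV, 17 of complex V and Cycs. The filter on low counts kept 45 of them among 15852 genes tested. The 4 left out, Cox6a2, Cox7b2, Cox8b and Cox8c, are isoforms known mainly from muscle, fat or testis. The samples were whole kidneys of adult males on a mixed background (129S1/Sv x C57BL/6): 4 mice labelled CDH11+/+ and 4 labelled CDH11-/-, a label for the loss of cadherin-11, which holds mesenchymal cells together. Both groups were given aristolochic acid, a plant toxin that injures the proximal tubule, at 3 mg/kg daily for 5 days, and kidneys were taken 2 weeks later. Although the series title refers to Unx/AngII, the samples are described by their labels. The sources do not describe the CDH11 allele, and no uninjured kidney was among the samples.

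The respiratory chain, in the inner mitochondrial membrane, passes electrons from NADH and succinate to oxygen. Complex II oxidises succinate and hands electrons to ubiquinone, complex III passes them to cytochrome c, and complex IV reduces oxygen. Complexes III and IV pump protons, and complex V makes ATP as the protons flow back. Most subunits are encoded in the nucleus and a few in the mitochondrial genome, and complex II has nuclear subunits only. The proximal tubule, which reabsorbs most of the filtrate, is among the tissues richest in mitochondria and depends on respiration for its ATP.

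Libraries held 10675309 to 13885009 counts in the group labelled CDH11+/+ and 12966177 to 18539479 in the group labelled CDH11-/-, and the members took 0.911% to 1.18% and 0.899% to 1.09% of them. Values below are in CPM, counts divided by TMM-scaled library sizes and brought to a common total, and a fold change is CDH11-/- relative to CDH11+/+ on the log2 scale with its standard error (SE). The targeted gene was not lower under its label: Cdh11 averaged 63.6 CPM in the libraries labelled CDH11+/+ and 103 CPM in those labelled CDH11-/-, a log2 fold change of 0.69 ± 0.11 (SE) with an edgeR adjusted p of 0.0243. Its groups did not overlap, with 58.0 to 75.6 and 89.9 to 117 CPM (beside 3.59% of all genes higher without overlap). DESeq2, limma-voom with quality weights and edgeR with 1 surrogate variable gave 0.70, 0.76 and 0.63 (adjusted p 5.07e-06, 0.00279 and 0.000137). With the authors' gene-by-library factors as edgeR offsets the value was 0.24 ± 0.15 (SE; adjusted p 0.544). Limma on the authors' normalized values gave 0.26 ± 0.15 (SE; adjusted p 0.524). Over left-out libraries the edgeR adjusted p ran from 0.00242 to 0.112. Every direction given here therefore rests on the labels. As the allele is not described, whether counts of Cdh11 can check the label is not known. Replicate numbers follow the order of deposit and only name a library. The p-values set the difference between the groups against the spread between these mice. The labels name no litter or batch, so such a difference between the groups could not be told apart from genotype.

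The genes of these complexes are scattered over 19 chromosomes, and the start regions of several carry letters recognised by factors known for nuclear respiratory genes. Of the members, 37 had a promoter entry in the RefSeq table for GRCm38.p6, from 250 bases before to 50 bases after the start. The NRF1 motif GCGCANGCG, searched on both strands, lay in 13 of 37 (35.1%), beside 9.63% of the promoters of 17491 coding genes. The motif CCGGAAG of the ETS family, which includes GABPA (NRF2), lay in 12 of 37 (32.4%, beside 12.9%). TCAAGGTCA, bound by ERR alpha, lay in 2 (5.41%, beside 0.377%), and AAGATGGCG of YY1 in 2 (5.41%, beside 2.14%). Of more general motifs, GGGGCGGGG of SP1 lay in 18.9% beside 17.3%, TGACGTCA of CREB in 5.41% beside 2.54% and TATAAA in 8.11% beside 14.8%. ERR alpha, YY1 and CREB rest on 2 members each, with a 95% interval of 0.661% to 18.2%. That interval holds the share over all coding genes for YY1 and for CREB. The NRF1 motif is nearly its own reverse complement, so matches on both strands can overlap, and each gene was counted once per motif. The median GC content was 56.5% in member promoters and 56.3% over all.

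The promoters of 6 genes are printed to show these matches beside the genes whose values are described below: the 150 bases before the RefSeq start, read 5' to 3' on the strand of the gene, with motif letters in capitals. All 6 genes lie on the minus strand. The Sdhd window, chr9:50603850-50603999, holds an NRF1 and an ETS match. The Cycs window, chr6:50566570-50566719, holds an NRF1 match, the Uqcrh window, chr4:116075071-116075220, an ETS match, and the Atp5g3 window, chr2:73911327-73911476, an ERR alpha match. The windows of Uqcr10, chr11:4704345-4704494, and Cox7a2l, chr17:83514334-83514483, hold none of the letters searched. The Cox7a2l window lies within the gene as GENCODE draws it, since that annotation has a longer form.
Sdhd: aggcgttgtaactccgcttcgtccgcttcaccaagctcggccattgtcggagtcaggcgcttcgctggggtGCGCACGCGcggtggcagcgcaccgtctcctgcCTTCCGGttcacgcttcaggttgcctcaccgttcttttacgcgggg
Cycs: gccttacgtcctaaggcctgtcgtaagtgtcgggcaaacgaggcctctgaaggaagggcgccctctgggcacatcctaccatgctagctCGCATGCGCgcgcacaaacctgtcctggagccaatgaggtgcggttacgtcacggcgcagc
Uqcrh: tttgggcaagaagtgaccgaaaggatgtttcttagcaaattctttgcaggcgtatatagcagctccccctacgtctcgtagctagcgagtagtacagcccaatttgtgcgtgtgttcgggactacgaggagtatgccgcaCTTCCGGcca
Uqcr10: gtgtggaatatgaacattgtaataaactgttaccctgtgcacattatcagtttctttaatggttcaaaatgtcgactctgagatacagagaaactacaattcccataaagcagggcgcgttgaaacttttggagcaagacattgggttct
Atp5g3: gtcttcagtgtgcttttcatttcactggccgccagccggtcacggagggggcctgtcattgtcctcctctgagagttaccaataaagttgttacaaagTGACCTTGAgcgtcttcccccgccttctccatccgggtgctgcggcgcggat
Cox7a2l: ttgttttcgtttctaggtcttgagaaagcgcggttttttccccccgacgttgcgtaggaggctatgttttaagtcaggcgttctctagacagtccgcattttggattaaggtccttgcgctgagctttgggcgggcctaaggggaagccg
A match describes the letters only, and these shares were not related to the values below.

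Across the complexes, the estimates for most genes were slightly lower in the libraries labelled CDH11-/-, and no single gene passed the test. With edgeR's quasi-likelihood test 0 of 45 members had an adjusted p under 0.05, where 0.719% of all 15852 genes did (0.347% lower and 0.372% higher). DESeq2 called 0 of 45, beside 3.36% of all genes. Limma-voom with quality weights called 2, Uqcr10 and Uqcrh, beside 4.28%, and edgeR with 1 surrogate variable called these and Atp5j2, beside 4.81%. At an unadjusted p under 0.05, 5 of 45 members were lower, beside 7.46% of all genes, and 0 were higher, beside 6.62%. The count of 5 was not stable: it was 23 with limma-voom (beside 11.9%), 14 with 1 surrogate variable (beside 9.18%) and 1 on the authors' normalized values (beside 5.9%). Leaving out CDH11+/+ replicates 1 to 4 in turn gave 35, 2, 1 and 2, beside 11.2%, 4.72%, 5.97% and 5.63% of all genes. Leaving out CDH11-/- replicates 1 to 4 in turn gave 3, 13, 0 and 2, beside 5.79%, 8.36%, 5.01% and 5.11%. The sign was negative for 42 of 45 members (93.3%), beside 52.2% of all genes, and for all 40 members with a mean of at least 50 CPM, beside 58.1% of all genes at that level. The median log2 fold change was -0.18 over the members, a median change of -11.5%, and -0.01 over all genes tested (-0.02 over those of at least 50 CPM). By complex it was -0.21 for complex II, -0.18 for complex III, -0.14 for complex IV and -0.18 for complex V, and Cycs had -0.11. Over the alternatives these medians ran from -0.28 to -0.13 for complex II, -0.28 to -0.09 for complex III, -0.23 to -0.06 for complex IV and -0.26 to -0.10 for complex V. Each was most negative without CDH11+/+ replicate 1 and nearest to 0 with 1 surrogate variable. Cycs was at -0.002 without CDH11+/+ replicate 2. The members share libraries and vary together, as described next, so these are not 45 separate pieces of evidence. In whole kidney, fewer cells of a type and less RNA per cell cannot be told apart.

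**Figure D1:**
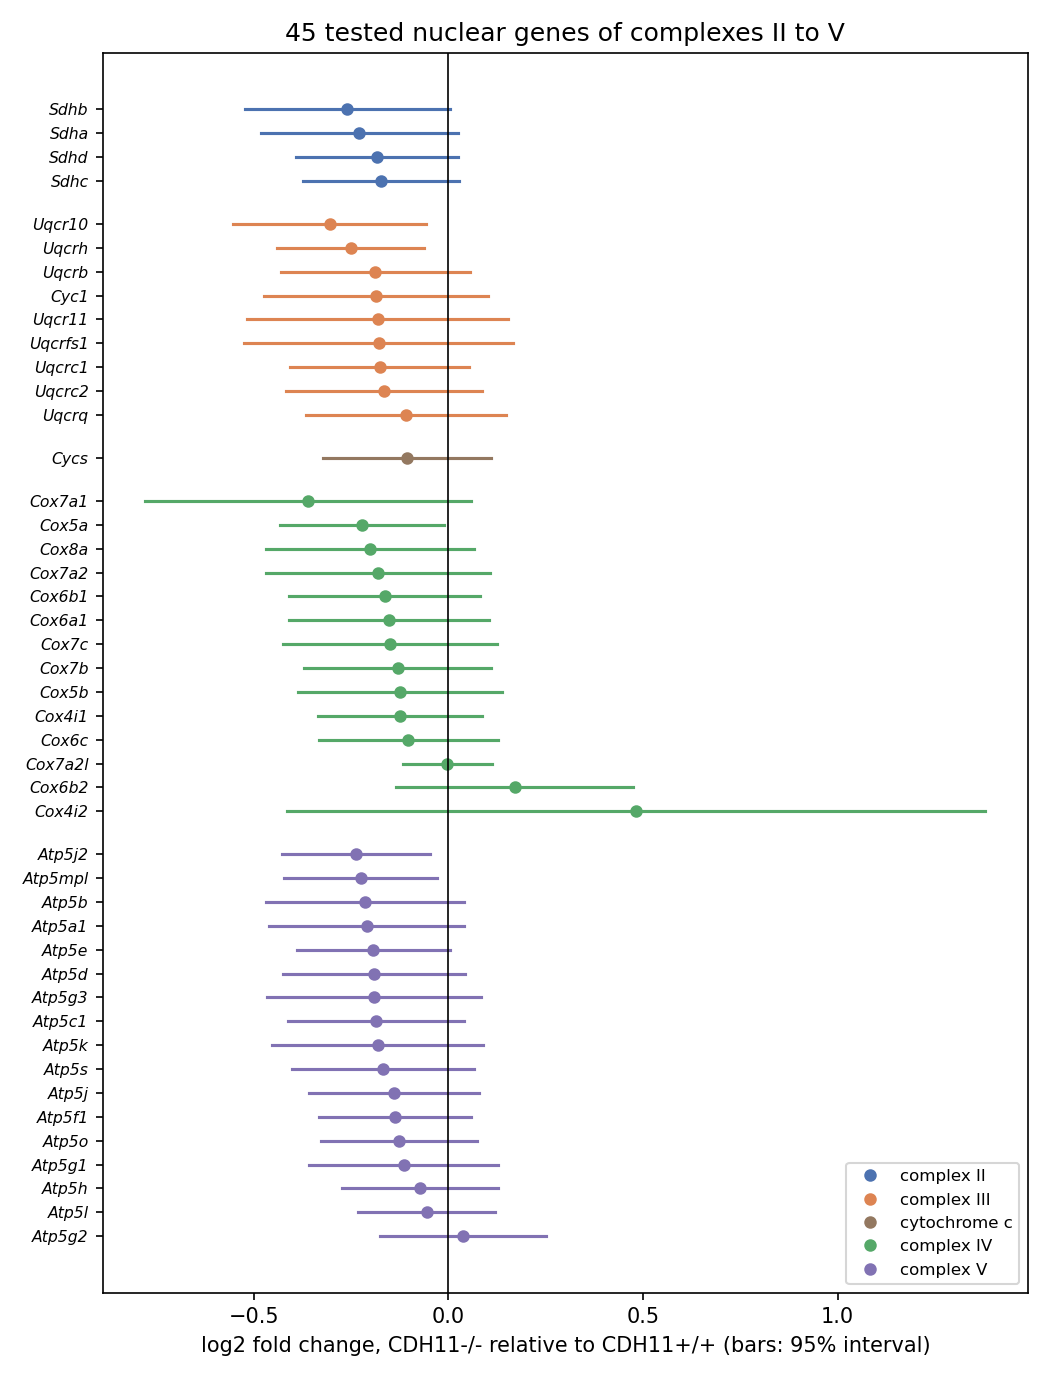
Log2 fold change of each of the 45 tested genes, in the libraries labelled CDH11-/- over those labelled CDH11+/+, grouped by complex. Points are edgeR estimates and bars their 95% intervals (4 libraries a group). Estimates for 42 of 45 genes lie below 0, and the intervals of 5 lie wholly below 0 without adjustment.

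The groups overlapped for each of the 45 tested members (0 without overlap, beside 3.74% of all genes lower and 3.59% higher). Among the 40 members above 50 CPM, CDH11+/+ replicates 2 to 4 lay above every CDH11-/- library for 18, so CDH11+/+ replicate 1 alone made the overlap. For 38 these replicates lay above 3 or more CDH11-/- libraries. CDH11-/- replicate 2 exceeded the lowest of them for 22. CDH11+/+ replicate 1 was set aside here after its values were seen. These orders were not counted over all genes, so whether they set the members apart is not known. Summed over the members, the 4 CDH11+/+ libraries held 8969, 12076, 12036 and 11034 CPM, and the 4 CDH11-/- libraries 9913, 10992, 9396 and 8833 CPM. The means were 11029 ± 1455 CPM and 9783 ± 919 CPM (SD, n = 4 each). CDH11+/+ replicate 1 sat among the CDH11-/- libraries: it was the lowest of its group for 39 of the 40 members above 50 CPM and lay below the CDH11-/- mean for 38. CDH11-/- replicate 2 was the highest of its group for all 40. Without CDH11+/+ replicate 1, edgeR called 8 of 45 members lower (17.8%), beside 3.17% of all genes lower, and 0 higher, beside 3.08%. Those 8 were Sdhb, Uqcr10, Uqcrh, Cox5a, Cox8a, Atp5e, Atp5j2 and Atp5mpl. Since nearly all abundant members were lowest of their group in that library, leaving it out raised their CDH11+/+ means by construction. These calls are thus no separate support for a lower level. The number of members called stayed at 0 when any other library was left out.

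**Figure D2:**
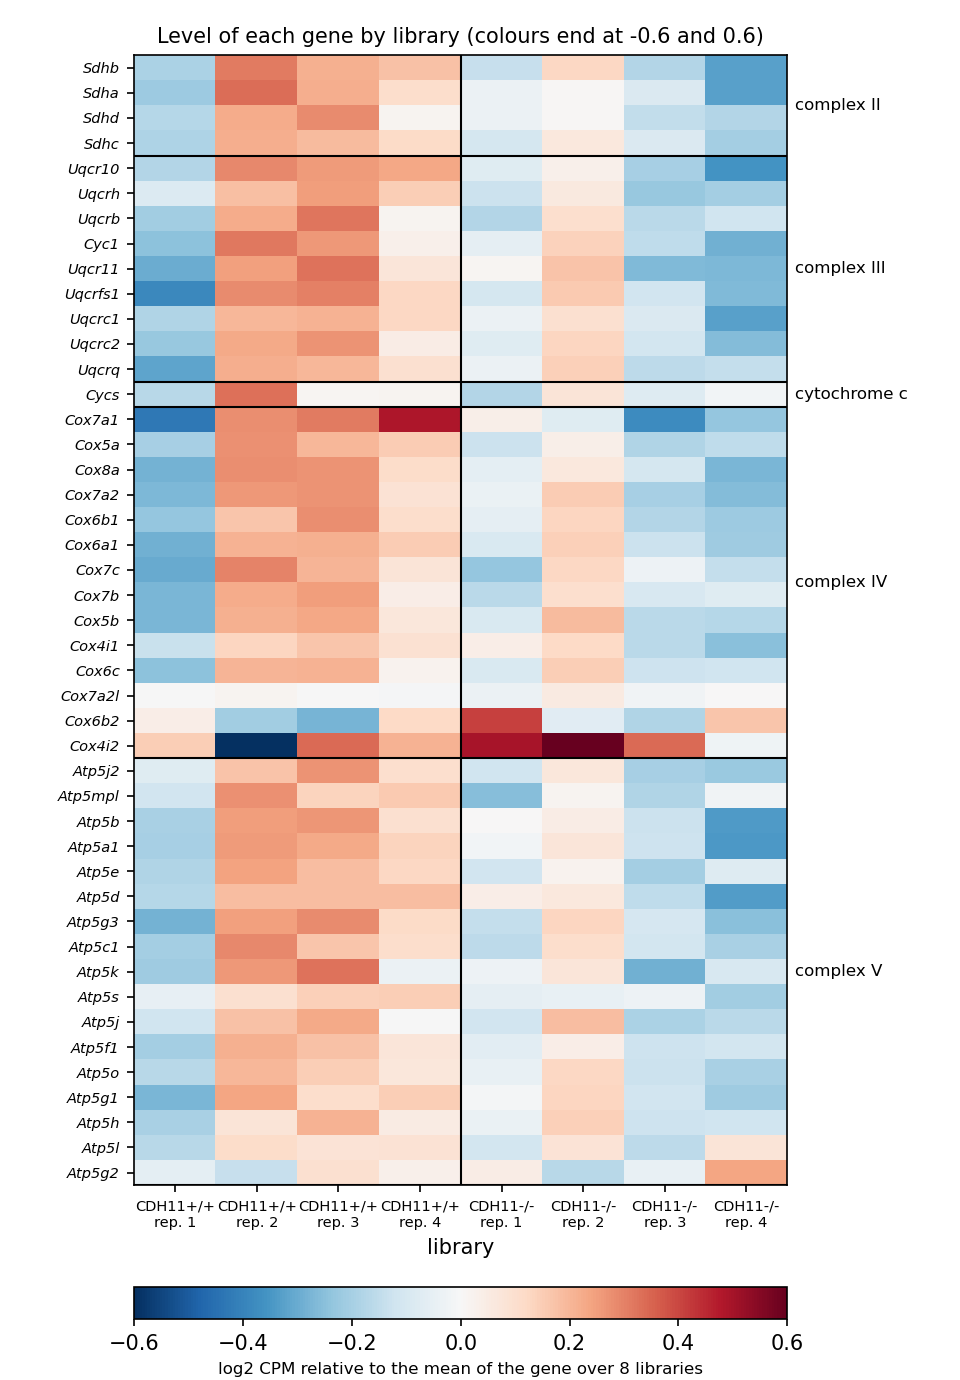
Level of each tested gene (rows, by complex) in each library (columns), as log2 CPM relative to the mean of that gene over the 8 libraries. CDH11+/+ replicate 1 is blue and CDH11+/+ replicates 2 to 4 are red for most genes, while Cox7a2l is near white in all 8 libraries and Cox4i2, Cox6b2 and Atp5g2 have patterns of their own.

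Among the 4 genes of complex II, which carries out a step of the tricarboxylic acid cycle as well as respiration, log2 fold changes ran from -0.26 to -0.17. Sdhb, the iron-sulfur subunit, had 141, 199.97, 187 and 182 CPM in the CDH11+/+ libraries and 147, 176, 143 and 129 CPM in the CDH11-/- libraries. CDH11+/+ replicate 1 was lower than 3 of the CDH11-/- libraries. The log2 fold change of Sdhb was -0.26 ± 0.12 (SE) with an edgeR adjusted p of 0.360. Sdha, the flavoprotein that binds succinate, had a log2 fold change of -0.23 ± 0.12 (SE) on 419 ± 65.8 and 357 ± 35.3 CPM (SD, n = 4 each). The membrane anchors Sdhc and Sdhd had -0.17 ± 0.09 and -0.18 ± 0.09 (SE).

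Complex III held the member with the smallest p and, among abundant members, the most negative fold change. Uqcr10, a small accessory subunit (chr11:4701973-4704342), had 131, 181, 177 and 174.5 CPM in the CDH11+/+ libraries and 141, 152, 129 and 116 CPM in the CDH11-/- libraries. CDH11+/+ replicates 2 to 4 were close to each other and above every CDH11-/- library, and CDH11+/+ replicate 1 was within the CDH11-/- range. The log2 fold change of Uqcr10 was -0.30 ± 0.11 (SE; 95% interval -0.55 to -0.06), with an edgeR p of 0.0207 and an adjusted p of 0.257. Uqcrh, the hinge protein that helps bind cytochrome c1 (chr4:116066965-116075071), had 191, 229, 241 and 224 CPM, then 185, 210, 172 and 175 CPM. Of the CDH11-/- libraries, replicate 2 alone exceeded CDH11+/+ replicate 1. Its log2 fold change was -0.25 ± 0.09 (SE; 95% interval -0.44 to -0.06), with an edgeR p of 0.0139 and an adjusted p of 0.227, the smallest among the members. The catalytic and core genes had values near the median: Cyc1 (cytochrome c1) -0.19 ± 0.13, Uqcrfs1 (the Rieske iron-sulfur protein) -0.18 ± 0.15, Uqcrc1 -0.18 ± 0.10 and Uqcrc2 -0.16 ± 0.11 (SE). Uqcrb, a small subunit of the matrix side whose exons overlap a gene on the opposite strand, had -0.19 ± 0.11 (SE). Uqcrq, a subunit next to the ubiquinone site, had the least negative value of the complex, -0.11 ± 0.12 (SE). Cycs, the mobile carrier between complexes III and IV, had 126, 178, 143 and 144 CPM and then 125, 149, 134 and 140.0 CPM. CDH11+/+ replicate 2 stood above the rest, and the other 7 libraries were mixed between the groups.

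In complex IV, whose 3 catalytic core subunits are made in the mitochondrion, the nuclear members are the surrounding subunits, several of them with tissue isoforms. Cox4i1, the general form of subunit 4, had 575, 689, 708 and 673 CPM in the CDH11+/+ libraries and 649, 684, 563 and 530.3 CPM in the CDH11-/- libraries, so the groups were interleaved. Its log2 fold change was -0.12 ± 0.10 (SE). Cox5a, which binds next to subunit 4 (chr9:57521274-57532426), had 171, 237, 225 and 217.5 CPM and then 179, 200.5, 173 and 176 CPM. CDH11+/+ replicate 1 was the lowest of all 8 for Cox5a, and the other CDH11+/+ libraries were above every CDH11-/- library. The log2 fold change of Cox5a was -0.22 ± 0.10 (SE), with an edgeR p of 0.0415 and an adjusted p of 0.336. Cox5b had -0.12 ± 0.12, Cox6a1 -0.15 ± 0.12, Cox6b1 -0.16 ± 0.11, Cox7a2 -0.18 ± 0.13 and Cox8a -0.20 ± 0.12 (SE).

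Cox7a2l was the exception among abundant members, singled out after its values were seen. It encodes a relative of Cox7a2 that helps join complexes III and IV into supercomplexes (chr17:83501918-83517330). It had 148, 150.3, 148 and 148 CPM in the CDH11+/+ libraries and 145, 154, 146 and 149 CPM in the CDH11-/- libraries. No library departed from the rest, CDH11+/+ replicate 1 included. The SD of its log2 CPM over the 8 libraries was 0.0274, where the median over the 40 abundant members was 0.192. The 95% interval of its log2 fold change ran from -0.12 to 0.11, around an estimate of -0.002.

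The tissue isoforms were low. Per kilobase of principal transcript, Cox7a1, the muscle and heart form, had 18.8 CPM per kb beside 187 for Cox7a2, and Cox4i2, a form known from lung and oxygen-sensing cells, had 1.54 beside 840 for Cox4i1. Cox6b2, known from testis, had 43.9 beside 400.1 for Cox6b1. Cox7a1 had 5.35, 8.74, 8.94 and 10.1 CPM in the CDH11+/+ libraries and 7.39, 6.85, 5.54 and 6.14 CPM in the CDH11-/- libraries. CDH11+/+ replicate 1 was again the lowest of the 8, and the log2 fold change was -0.36 ± 0.19 (SE). Cox6b2 and Cox4i2 were among the 3 members with positive values, 0.17 ± 0.14 and 0.48 ± 0.41 (SE), neither past the test (edgeR adjusted p of 0.631 and 0.648). Cox4i2 had 1.11, 0.228, 1.27 and 1.16 CPM and then 1.41, 1.55, 1.27 and 0.985 CPM, so a single low library, CDH11+/+ replicate 2, set its mean. Without it the log2 fold change of Cox4i2 was 0.15.

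As ratios within a library, which cancel scaling and length, no isoform pair passed the test. The log2 ratio of Cox4i2 to Cox4i1 was 0.79 higher in the CDH11-/- libraries, and the two-sided exact permutation p was 0.0571 (adjusted over 5 ratios, 0.286). Without CDH11+/+ replicate 2 the difference was 0.22. A test of 4 against 4 cannot go below 0.0286, and after adjustment over 5 ratios a single ratio at that floor stays above 0.05. The lack of a pass is thus no sign that the ratios are equal. The ratio Cox6b2 to Cox6b1 differed by 0.32 (exact permutation p 0.257, adjusted 0.371) and Cox7a1 to Cox7a2 by -0.15 (p 0.343, adjusted 0.371). Cox6b2 made up 6.23% to 10.6% of its pair in CDH11+/+ and 7.87% to 11.9% in CDH11-/- libraries, and the ranges overlapped.

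Of the 4 members below the filter, Cox8c had 0 counts in all 8 libraries and Cox7b2 had 1 count. Cox6a2, the heart and muscle form of subunit 6a, had 30 counts in all. Cox8b, the form of subunit 8 in brown fat and muscle, had 8 counts in CDH11-/- replicate 4 (0.606 CPM), 1 count in CDH11+/+ replicate 3 and 0 elsewhere. Fat markers were also highest in CDH11-/- replicate 4: the adipsin gene Cfd had 14.9 CPM there and at most 0.308 CPM in the other libraries, Plin1 had 2.42 CPM (at most 0.403 elsewhere), Adipoq 1.82 CPM (at most 0.129) and Ucp1 0.757 CPM (at most 0.269). For the whole list of 8 fat markers the sum was 46.9 to 66.0 CPM in CDH11+/+ and 51.5 to 105 CPM in CDH11-/- libraries, most of it from Fabp4, which endothelium also expresses. Ucp1 was at 0 in all 4 CDH11+/+ libraries. Muscle markers summed to 2.05 to 4.34 and 2.84 to 3.29 CPM. The part of such cells in the counts of Cox8b was not tested.

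In complex V, 16 of 17 members had negative values. Atp5b, the catalytic beta subunit and the most abundant member by CPM, had 1106, 1504, 1521 and 1352 CPM in the CDH11+/+ libraries and 1267, 1306, 1156 and 1000 CPM in the CDH11-/- libraries. The groups overlapped through CDH11+/+ replicate 1. The log2 fold change of Atp5b was -0.21 ± 0.12 (SE), and that of Atp5a1, the alpha subunit, also -0.21 ± 0.11 (SE). The gamma subunit of the central stalk, Atp5c1, had -0.19 ± 0.10, its epsilon subunit Atp5e -0.19 ± 0.09, and Atp5o, which joins the F1 head to the peripheral stalk, -0.13 ± 0.09 (SE). Atp5j2, subunit f of the membrane part (chr5:145183698-145192062), had 210.0, 248.8, 266 and 237 CPM and then 203, 231, 192.5 and 189 CPM. All CDH11+/+ libraries exceeded 3 of the CDH11-/- libraries, and CDH11-/- replicate 2 exceeded CDH11+/+ replicate 1. Its log2 fold change was -0.24 ± 0.09 (SE), with an edgeR p of 0.0189 and an adjusted p of 0.248. Atp5mpl, a small membrane subunit (chr12:111961375-111966977), had 67.2, 88.0, 79.7 and 81.0 CPM and then 60.9, 73.7, 64.2 and 71.7 CPM. CDH11+/+ replicates 2 to 4 were again above every CDH11-/- library, and the log2 fold change was -0.23 ± 0.09 (SE; edgeR p 0.0280, adjusted p 0.288).

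The ring of c subunits that turns as protons pass is encoded by 3 genes with the same mature protein. By RNA level Atp5g3 was the highest of them: 532 ± 81.3 CPM per kb (SD, n = 8) beside 41.9 ± 5.28 for Atp5g1 and 42.4 ± 3.91 for Atp5g2, or 83.8% to 87.7% of the 3 per library. The share depends on the length used, since the principal transcript of Atp5g1 has 2676 bases: by CPM, Atp5g3 held 71.6% to 75.9%, and the mean share of Atp5g1 was 21.6% in place of 6.81%. It also leaves out the pseudogene copies of Atp5g2, described below, at 98.2 to 125 CPM. Counted with Atp5g2, they would lower the share of Atp5g3. Atp5g3 had 311, 448, 460 and 410.1 CPM and then 342, 414, 353 and 318 CPM, with a log2 fold change of -0.19 ± 0.12 (SE). Atp5g2 did not share that pattern. It had 23.8, 22.5, 26.5 and 25.3 CPM in the CDH11+/+ libraries and 25.5, 22.1, 24.0 and 29.2 CPM in the CDH11-/- libraries, with the highest value in CDH11-/- replicate 4, where Atp5g3 was low. Its log2 fold change was 0.04 ± 0.10 (SE), and the sign reversed in 4 of 19 alternatives. The ratios to Atp5g3 did not pass the test, with differences of 0.07 for Atp5g1 (exact permutation p 0.371, adjusted 0.371) and 0.22 for Atp5g2 (p 0.343, adjusted 0.371).

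Processed pseudogenes bear on these genes, since reads can be shared with near-identical copies. By sequence, 20 members had at least 1 copy with 90% identity over 80% of the coding sequence, and for 6 the copies held more than 1% as many counts as the member. The copies of Atp5g2 held 442% of its counts, chiefly Gm10175, a transcribed processed pseudogene on chromosome 7 with 11854 counts over the 8 libraries. Adding them raised Atp5g2 from 24.9 to 134 CPM on average and moved its log2 fold change to -0.02. The copies of Atp5l, a membrane subunit, held 57.9% of its counts, those of Atp5g1 15.2% and those of Cox7c 13.0%. With copies added, Atp5l went from -0.06 to -0.11, Atp5g1 from -0.11 to -0.15 and Cox7c from -0.15 to -0.17. The sources do not say how reads that fit several places were counted, so the levels of these 4 genes are uncertain. Exons of 13 members overlap another annotated gene, 12 of them on the opposite strand, and whether strand was used in counting is likewise unknown. The 13 are Uqcrb, Uqcrc2, Cox4i1, Cox5a, Cox6a2, Cox6c, Atp5a1, Atp5d, Atp5f1, Atp5j, Atp5l, Atp5o and, on the same strand only, Atp5g2.

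**Figure D3:**
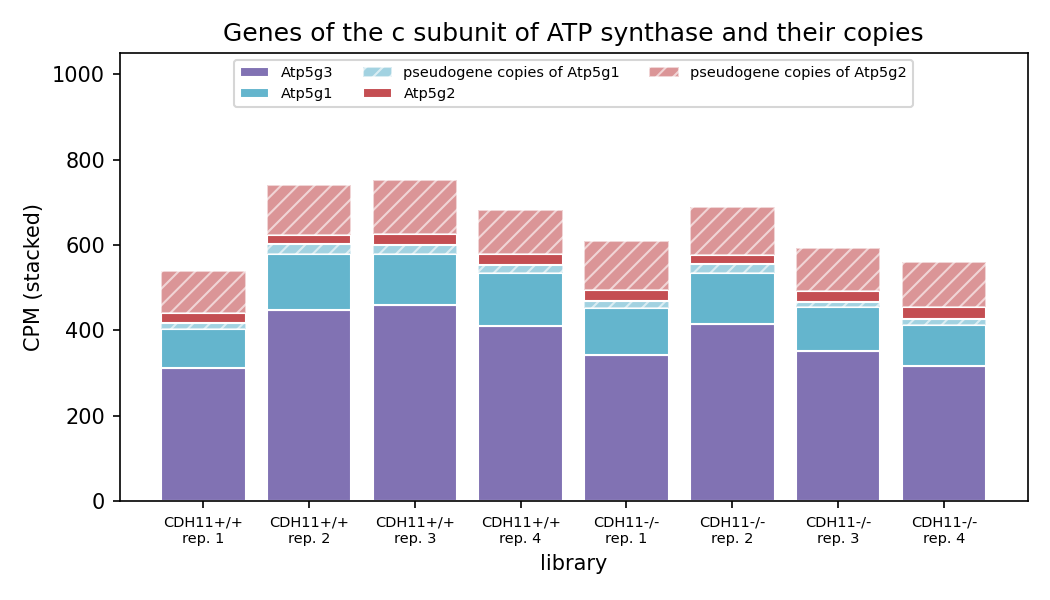
Level in CPM of the 3 genes of the c subunit and of the processed pseudogene copies of Atp5g1 and Atp5g2, stacked for each library. Atp5g3 is the largest part in all 8 libraries, and the copies of Atp5g2 exceed Atp5g2 itself in each.

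Levels per kilobase ranked Cox4i1 first at 840 ± 89.4 CPM per kb (SD, n = 8), then Atp5b at 666 ± 96.3, with Cox6c and Atp5g3 after them. The medians of the abundant members were 126 CPM per kb for complex II, 197 for complex III, 349 for complex IV and 273 for complex V. Cycs stood at 45.6 and Atp5g1 at 41.9, the lowest abundant members on this scale. The differences between genes far exceeded those between groups.

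The abundant members moved together from library to library. Over the 8 libraries, the correlation of a member's log2 CPM with the mean of the other members had a median of 0.947 and was at least 0.9 for 34 of 40. All 4 genes of complex II and all 9 of complex III were among the 34. Cycs had 0.663 and Cox7a2l 0.380. Below 50 CPM, Cox4i2 had -0.38, Cox6b2 -0.49 and Atp5g2 -0.30. These are descriptions over libraries that share depth, scaling and tissue makeup. Averaged over the 40 abundant members, log2 CPM relative to the 8-library mean was -0.21, 0.23, 0.21 and 0.09 in the CDH11+/+ libraries and -0.08, 0.10, -0.14 and -0.19 in the CDH11-/- libraries. In each of complexes II, III, IV and V the highest library was CDH11+/+ replicate 2 or 3, and the lowest was CDH11+/+ replicate 1 or CDH11-/- replicate 4.

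Transcripts of the mitochondrial genome followed that order in part. Of the 6 mitochondrially encoded subunits of complexes III to V, 0 were called and 0 had an unadjusted edgeR p under 0.05. Over all genes, 0.719% were called and 7.46% were lower at that unadjusted p. These subunits had 6 of 6 negative values, with a median of -0.08. Their mean deviations were -0.30, 0.32, 0.13 and 0.03 in the CDH11+/+ libraries and -0.32, 0.22, -0.13 and 0.06 in the CDH11-/- libraries. CDH11-/- replicate 4, the lowest of its group for the nuclear members, was thus not low for the mitochondrial ones, and CDH11-/- replicate 1 was the lowest of all. The pair with the smallest p were mt-Atp8 (-0.17 ± 0.19) and mt-Co2 (-0.10 ± 0.14, SE), a subunit of ATP synthase and a catalytic subunit of complex IV.

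Other mitochondrial genes leaned the same way, with 0 called by edgeR in each list, beside 0.719% of all genes. All counts below with an unadjusted p under 0.05 were of lower genes, beside 7.46% of all genes. Those for complex I and the tricarboxylic acid cycle were near that share. Complex I had 36 of 36 negative values (median -0.14, 3 with an unadjusted p under 0.05), with Ndufs1, its largest iron-sulfur subunit, at -0.32 ± 0.12 and Ndufa7 at -0.15 ± 0.06 (SE). The tricarboxylic acid cycle had 14 of 14 (median -0.17, 1 with p under 0.05), with the succinyl-CoA ligase subunit Suclg2 at -0.40 ± 0.12 and Dlst at -0.20 ± 0.09 (SE). Assembly factors of complexes II to V had 30 of 38 negative (median -0.11, 5 with p under 0.05). Of these, Cox16, needed to build complex IV, had 26.1 to 27.8 CPM in CDH11+/+ and 19.3 to 25.1 CPM in CDH11-/- libraries without overlap, yet its edgeR adjusted p was 0.245. Higd2a, another factor of complex IV, had -0.19 ± 0.08 (SE). Membrane and import genes had 17 of 19 negative (median -0.09, 4 with p under 0.05), the chaperones Hspd1 at -0.26 ± 0.09 and Hspa9 at -0.23 ± 0.08 (SE) among them.

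Regulators of mitochondrial genes did not lean as uniformly: 10 of 15 were negative, beside 52.2% of all genes, with a median of -0.05. An unadjusted edgeR p under 0.05 came with 2, both lower, beside 7.46% of all genes lower. Ppara, the nuclear receptor that drives fatty acid oxidation, had 17.99, 17.2, 16.0 and 18.5 CPM in the CDH11+/+ libraries and 8.87, 11.6, 14.3 and 9.62 CPM in the CDH11-/- libraries. All CDH11+/+ libraries, replicate 1 included, lay above every CDH11-/- library. The log2 fold change of Ppara was -0.64 ± 0.14 (SE), with an edgeR adjusted p of 0.0735. Esrrg, an estrogen-related receptor, had -0.37 ± 0.11 (SE; adjusted p 0.158), with 39.3 CPM in CDH11+/+ replicate 1 and 36.7 to 39.8 CPM in the CDH11-/- libraries.

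Markers of several kidney cell types also varied from library to library, and no correlation with the members was computed. Of 16 proximal tubule markers, 13 had an unadjusted edgeR p under 0.05 (beside 7.46% of all genes lower) and 0 were called (beside 0.719%). All 16 were negative, with a median of -0.77. Their summed level was 3845 to 9669 CPM in CDH11+/+ and 3068 to 7197 CPM in CDH11-/- libraries, and none was at 0. Their mean deviations were -0.17, 1.002, 0.44 and 0.52 in the CDH11+/+ libraries and -0.50, -0.11, -0.36 and -0.82 in the CDH11-/- libraries, so CDH11+/+ replicate 1 and CDH11-/- replicate 2 were again the lowest and the highest of their groups. For these markers CDH11+/+ replicate 1 still lay above CDH11-/- replicates 1, 3 and 4, unlike for the abundant respiratory genes. In other tubule lists it was the lowest of all 8 libraries: thick ascending limb (-0.53), distal convoluted tubule (-0.63) and collecting duct (-0.34). Distal convoluted tubule markers were 5 of 5 negative (median -0.39) and thick ascending limb markers 5 of 6 (median -0.17). Collecting duct markers were 4 of 8 negative (median -0.03) and injured tubule markers 5 of 8 (median -0.10). At an unadjusted edgeR p under 0.05, 2 distal convoluted tubule, 1 collecting duct and 2 injured tubule markers were lower. Endothelial markers were 8 of 8 positive (median 0.32; 362 to 470 CPM and 480 to 521 CPM summed), fibroblast markers 8 of 9 (median 0.42; 1537 to 2254 and 1799 to 2573 CPM) and macrophage markers 9 of 9 (median 0.15; 3552 to 5079 and 4160 to 5300 CPM). Lymphocyte markers were 6 of 7 positive (median 0.21; 72.9 to 185 and 278 to 326 CPM). At that p, 6 endothelial, 5 fibroblast, 1 macrophage and 2 lymphocyte markers were higher, beside 6.62% of all genes. CDH11+/+ replicate 1 was the highest of its group for fibroblast markers (0.23), macrophage markers (0.27) and injured tubule markers (0.28), the last the highest of all 8 libraries. The part of tissue makeup in the respiratory gene values was not tested.

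**Figure D4:**
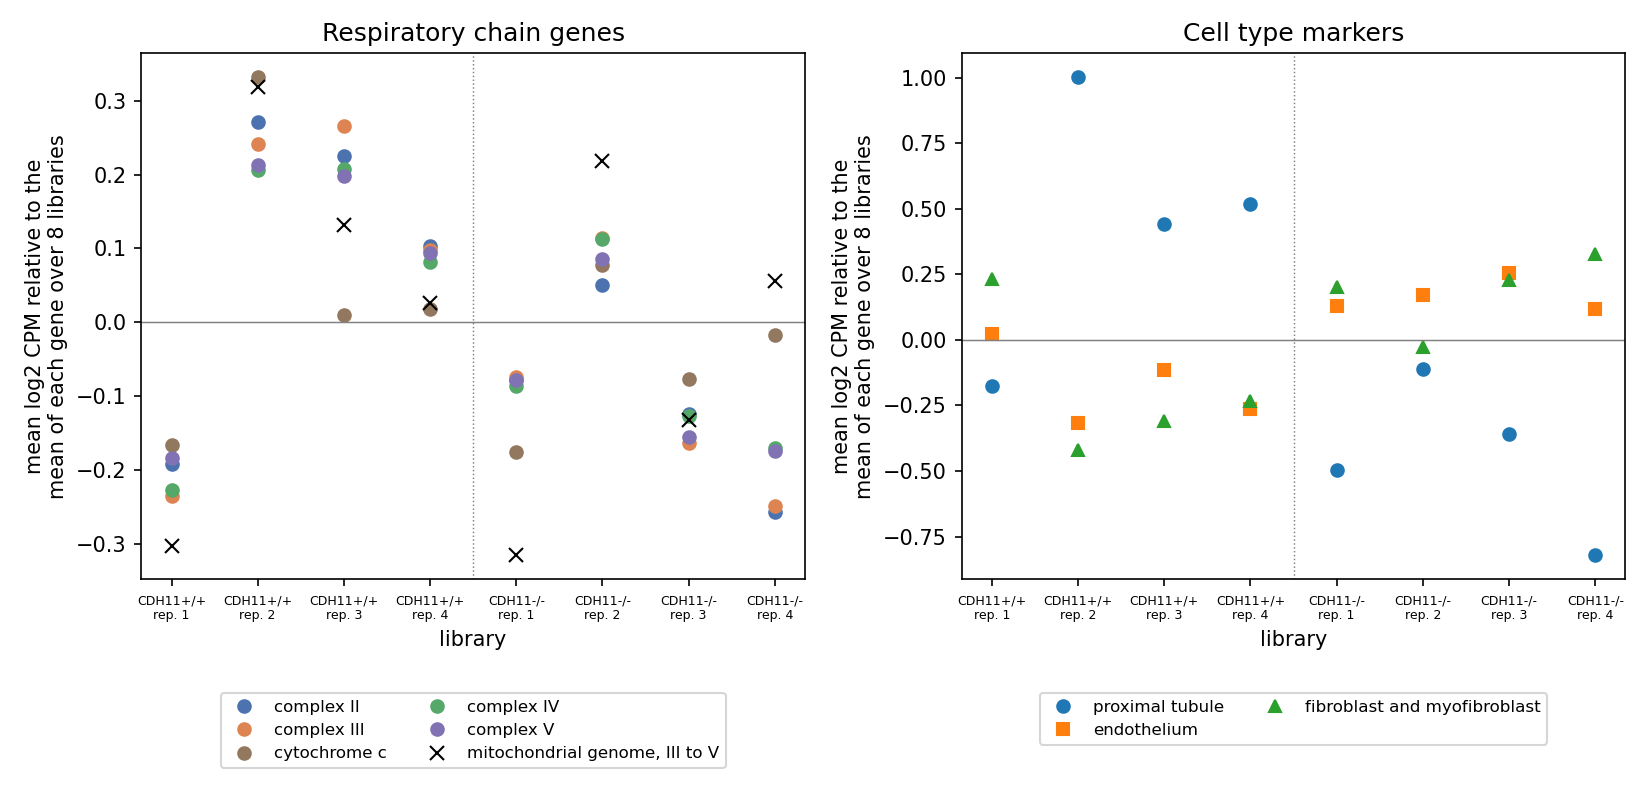
Mean log2 CPM relative to the 8-library mean of each gene, by library, for the abundant nuclear genes of each complex and the mitochondrially encoded subunits (left) and for markers of 3 kidney cell types (right). CDH11+/+ replicate 1 lies below 0 for the 4 complexes and for proximal tubule markers, apart from CDH11+/+ replicates 2 to 4.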

How the data were processed

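RNA was measured in 8 kidneys, grouped by labelled genotype. The deposited files are the authors' counts per gene, unscaled, and a second table of normalized counts (a signal in which each count is divided by a factor of the authors that differs by gene and library). Build mm10, DRAGEN and DESeq2 are named in the submitters' processing notes, without roles. Annotation, strand setting and read assignment were not given in the sources used here. Per the labels' protocols the library kit was directional.

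All 42256 identifiers were named through GENCODE M21 (GRCm38), and 0 columns belonged to other samples. A second Atp5o model had no row in the count table, and 8 pseudogenes with matching symbols were left out. Levels per kilobase use the principal transcript. The main test was the edgeR 4.0.16 quasi-likelihood test in R 4.3.3 with robust moderation, TMM library sizes and filterByExpr, adjusted by Benjamini-Hochberg over 15852 genes at 0.05. It was tested on simulated counts, drawn separately for each gene and with larger changes than those of the members. That simulation does not cover small shifts shared between genes. The common biological coefficient of variation was 13.5%. Isoform ratios of counts (pseudocount 0.5) were tested by exact permutation, two-sided. Pseudogene copies were found with blastn 2.17.0. The members and lists were chosen with earlier results of these data known. Named members were the complex II genes, the catalytic and core genes, the isoform pairs, and in each complex the 3 of smallest p and the most positive, and the pathway genes named were the 2 of smallest p in each list. Other names were picked after their values were seen. Alternatives were other filters, scalings and tests (DESeq2 1.42.0, limma 3.58.1, sva 3.50.0), the authors' normalized values or factors, leaving out each library and, added after seeing the data, adding pseudogene copies.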

Additional observations from a re-analysis of the deposited data

Results flagged for a closer look

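In 11 of 121 groups of 4 libraries a single library stood far from the other 3, where chance gives about 1 in 20 for separate groups. These groups share libraries and move together, so that rate is no yardstick for the tally. For 4 members it was CDH11+/+ replicate 1, below its group. Uqcr10 had 131 CPM there against 174.5 to 181, and Cox6a1 had 214 CPM against 290 to 302. Atp5d, the delta subunit of the central stalk of ATP synthase, had 175 CPM against 225 in each of the others. Atp5l had 84.3 CPM against 100.1 to 102. For Cox6c, CDH11-/- replicate 2 was high, with 364 CPM against 301 to 309. Atp5s, also called coupling factor B, was low in CDH11-/- replicate 4 with 9.09 CPM against 10.1 to 10.3. Cox4i2 had 0.228 CPM in CDH11+/+ replicate 2 against 1.11 to 1.27, and its log2 ratio to Cox4i1 was -11.34 there against -9.14 to -8.96. Single libraries held the few counts of rare isoforms: Cox7b2 had 0.0771 CPM in CDH11+/+ replicate 4, and Cox8b had 0.0791 CPM in CDH11+/+ replicate 3 and 0.606 CPM in CDH11-/- replicate 4, each against 0 in the other 3, where any count stands apart by construction.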

How the results depend on the processing

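Over 14 fits, 41 to 43 of the 45 members were negative, where 48.9% to 53.1% of all genes were, and the median over the members lay between -0.25 (without CDH11+/+ replicate 1) and -0.09 (1 surrogate variable), with -0.11 without CDH11+/+ replicate 3 or CDH11-/- replicate 4. The number of members called depended on the setting: 2 with limma-voom and quality weights, 3 with 1 surrogate variable (Uqcr10, Uqcrh and Atp5j2), and 0 to 8 when a library was left out, 8 without CDH11+/+ replicate 1 and 0 otherwise. Of 627 values of single named members under alternatives, 610 kept their direction and side of the threshold, 13 passed it and 4 reversed, all 4 for Atp5g2: -0.015 with limma-voom, -0.016 with pseudogene copies added, and -0.027 to 0.095 over left-out libraries (negative without CDH11+/+ replicate 2 or CDH11-/- replicate 4). The cause was not tested. Genes called over all tested numbered 114, and 208 without the filter on low counts, 532 with DESeq2, 679 with limma-voom, 762 with 1 surrogate variable, 54 with limma on the authors' values and 50 with their factors as offsets. Leaving out a library gave 26 (CDH11+/+ replicate 4) to 1004 (CDH11+/+ replicate 1). No paired analysis was possible because the labels carry no replicate numbers, and those used here follow the order of deposit. No isoform ratio passed the test in the alternatives run, and a single ratio could not pass after adjustment over 5 ratios. In the 150 bases before the start the motif shares were smaller: NRF1 21.6% (beside 6.77% of coding genes), ETS 21.6% (beside 8.35%), ERR alpha 2.7% (beside 0.172%) and SP1 10.8% (beside 13.6%). The SE of the members ran from 0.05 to 0.41, the largest for Cox4i2 at about 1 CPM, and the 4 members under the filter on low counts were not tested.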
